A study of Caenorhabditis elegans with 2 samples.

Results

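The oxidative phosphorylation genes of Caenorhabditis elegans were taken as the protein-coding genes whose symbols mark them as subunits or assembly factors of the respiratory chain and the ATP synthase. The rule took the nuo-, cox-, cco-, atp-, cyc-, sdha-, sdhb-, sdhd- and ucr- symbols followed by a digit, together with isp-1, gas-1, mev-1 and lpd-5. It found 42 of 19985 protein-coding genes: 8 of complex I, 5 of complex II, 7 of complex III, 2 cytochromes c, 7 subunits and 8 assembly factors of complex IV, and 5 of complex V. No annotated gene had a cco- symbol. The study is a chromatin immunoprecipitation with sequencing (ChIP-seq) of ZTF-29, a zinc finger protein, in whole mid-stage embryos that were collected by bleaching and labelled with an age of 0 hours. The worms were of strain RW12283, whose allele st12283 puts TY1, EGFP and 3xFLAG tags on the endogenous ztf-29 gene by CRISPR insertion, and the precipitation used an antibody against GFP. There was a single group of 2 biological replicates with no other genotype, treatment or stage, and an untagged or input sample was not analysed here. Whole embryos hold many cell types at once, so that a weak peak in all cells and a strong peak in few cells cannot be told apart.

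Oxidative phosphorylation is the production of ATP in mitochondria. Complexes I and II take electrons from NADH and succinate, complex III passes them to cytochrome c, complex IV passes them to oxygen, and complex V, the ATP synthase, uses the proton gradient so built to make ATP. Most subunits are encoded in the nucleus and a few in the mitochondrial genome, whose genes the rule does not reach. In worms, mutations in some of these genes, isp-1 and mev-1 among them, are known for their effects on life span and respiration.

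A gene was placed with a peak when the peak's summit lay between 500 bp upstream and 100 bp downstream of any of its annotated protein-coding starts. Many worm transcripts are trans-spliced, so an annotated start need not be where transcription begins. The authors deposited ranked candidates and, among them, listed peaks, which reached an irreproducible discovery rate (IDR) of at most 0.01. The IDR of a peak is the expected share, among peaks ranked at least as high, that does not recur between the 2 peak sets compared. There were 814 listed peaks in the conservative list and 1114 in the full list, both made from both replicates, with 466 in the list of replicate 1 and 802 in the list of replicate 2. A further 126, 136, 107 and 133 candidates, in the same order, were within the limit but not listed. Counting those of the conservative list left the members with a peak at 6. Signals are those the authors deposited with each peak, in units that no source names, and they were set against each other only within a list, mainly as a rank or percentile among its candidates. Read depth was not known, and the intervals given for shares are exact 95% Clopper-Pearson intervals that cover counting error only.

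In the conservative list 6 of the 42 genes had a listed peak in the window, namely atp-1, atp-2, atp-3, cox-5A, cox-5B and cyc-1. They made up 23.1% (interval 8.97 to 43.6%) of the 26 members with any candidate in the window, against 4.50% of the 7311 protein-coding genes with one. As a share of all members the value was 14.3% (5.43 to 28.5%), against 1.65% of all protein-coding genes. In the full list 6 of 27 members with a candidate were listed, 22.2% (8.62 to 42.3%), against 5.72% of genes with a candidate and, without that condition, 14.3% of members against 2.05% of genes. No test of the list was made, since its genes were grouped with results of these data known. Over all 4 lists 8 members were listed at least once, these 6 with cox-6B and ucr-2.1. Another 24 had candidates that were never listed, and 10 had no candidate in any list. These pooled counts were not made for all protein-coding genes, so they have no background share beside them. In single lists that share was between 1.11% (replicate 1) and 2.05% (full list).

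**Figure D1:**
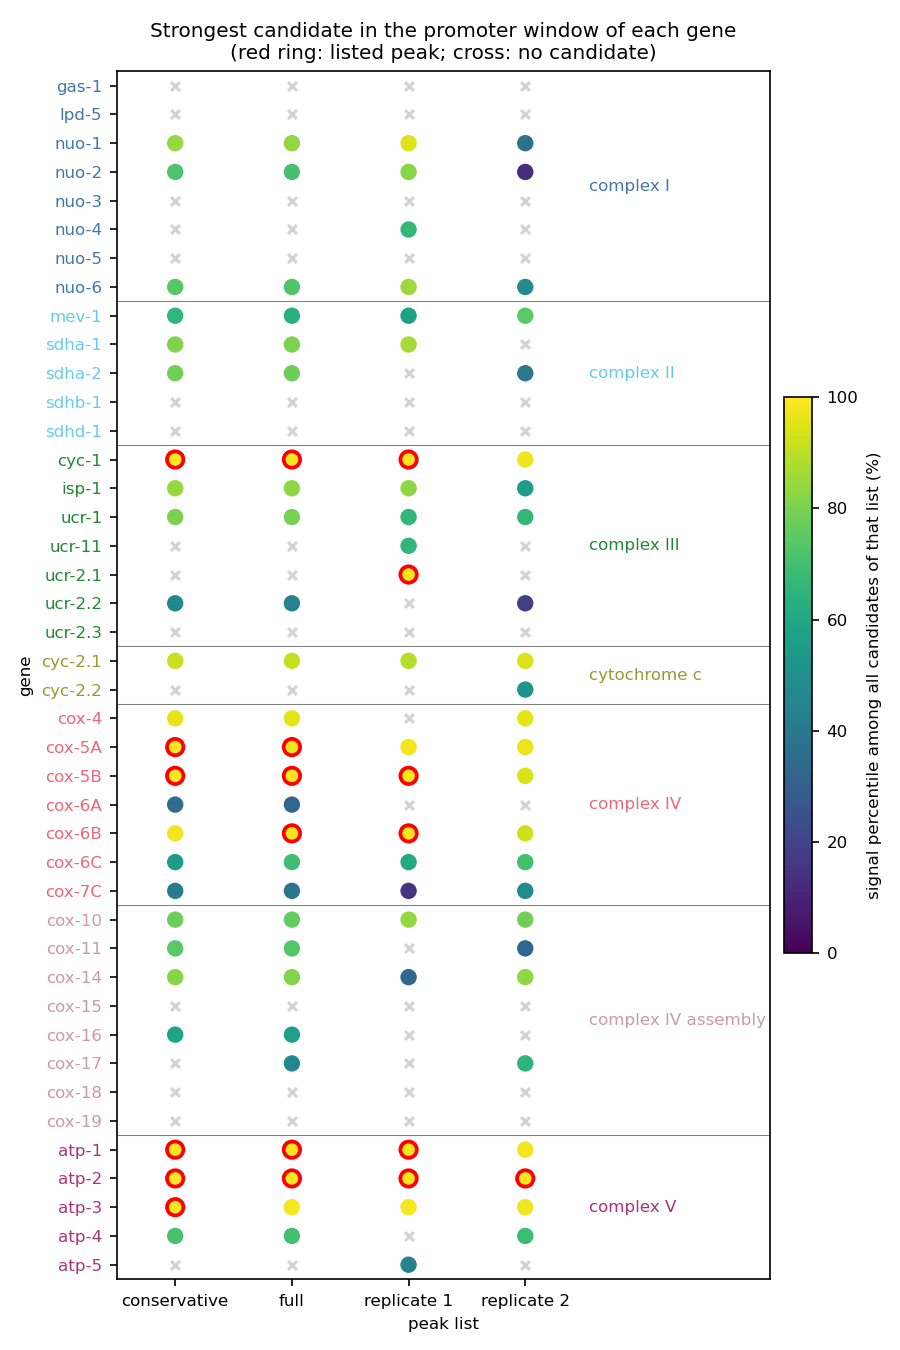
Rows are the 42 genes, grouped by complex, and columns are the conservative, full, replicate 1 and replicate 2 lists. Colour gives the signal percentile (%) of the strongest candidate in the promoter window among all candidates of that list, a red ring marks a listed peak and a grey cross a gene with no candidate. The rings are on genes of complexes III, IV and V, and in the replicate 2 column only on atp-2.

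Listed peaks lay at subunits of complexes III, IV and V. Complex V had a listed peak at 3 of 5 genes in the conservative list (60.0%, 14.7 to 94.7%), complex IV at 2 of 7 subunits (28.6%, 3.67 to 71.0%) and complex III at 1 of 7 (14.3%, 0.361 to 57.9%). Complexes I and II had none at 13 genes in any of the 4 lists, which allows a share of up to 24.7%. None of the 8 assembly factors of complex IV was listed (up to 36.9%), nor either cytochrome c (up to 84.2%). Of all protein-coding genes, between 1.11% (replicate 1) and 2.05% (full list) were listed, with 1.65% in the conservative list. A count of 0 at so few genes therefore cannot be told from the background. The subunits of complexes III, IV and V together had 6 of 19 (31.6%, 12.6 to 56.6%), whose interval overlaps that of complexes I and II. In the full list the counts were 2 of 5 for complex V, 3 of 7 for complex IV and 1 of 7 for complex III. Replicate 1 listed 2 genes of each of these complexes, and replicate 2 listed 1 gene of complex V and 0 of the others. The median percentile of the strongest candidate in the conservative list was 99.0 for the 4 genes of complex V with one, 95.8 for the 7 of complex IV and 82.0 for the 4 of complex III, with 73.9 for the 3 of complex I and 78.5 for the 3 of complex II. It was 76.0 for the 4 assembly factors, and cyc-2.1, the one cytochrome c gene with a candidate, stood at 91.5 without being listed.

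**Figure D2:**
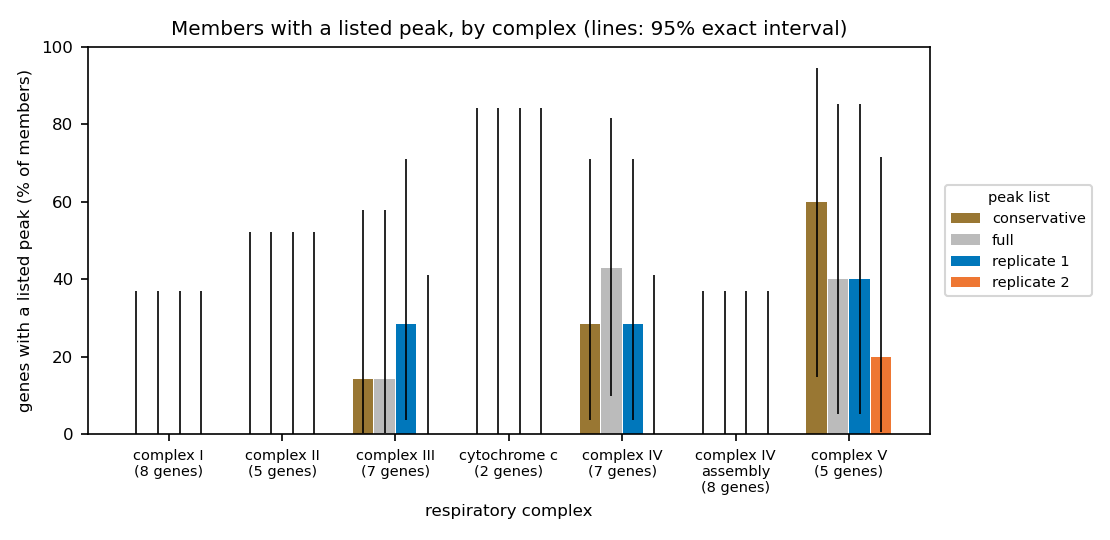
The share of genes with a listed peak (% of the members of each complex) in the conservative, full, replicate 1 and replicate 2 lists, with exact 95% intervals as thin lines. Bars stand above 0 for complexes III, IV and V, up to 60.0% for complex V in the conservative list, and the intervals of all complexes overlap.

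Of complex V, atp-1 and atp-2 encode the alpha and beta subunits of the catalytic head and atp-3 the subunit that joins the head to the stator. The listed peak of atp-2 (WBGene00000229, ce11 chromosome III:5228417-5230536, plus strand) covered III:5228009-5228284, and its summit was intergenic, 270 bp upstream of the start. Its signal was 119.1 in the conservative list, 50.2 in replicate 1 and 63.1 in replicate 2. Its IDR was 0.000673 in the conservative list, 0.000256 in the full list, 0.00137 in replicate 1 and 0.00376 in replicate 2. It was the member listed in all 4 lists, and its summits in the replicates were 283 and 293 bp upstream.

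The peak of atp-1 (WBGene00010419, I:12652277-12654655, plus strand) covered I:12652156-12652431. Its summit was in the annotated 5' UTR, 17 bp downstream of the start. Signal was 110.9 in the conservative list, 50.3 in replicate 1 and 57.7 in replicate 2. The IDR was 0.000878 in the conservative list, 0.00323 in the full list and 0.00318 in replicate 1, but 0.789 in replicate 2, where the candidate was not listed although its signal stood at percentile 98.3. For atp-3 (WBGene00000230, I:5428533-5429908, minus strand) the peak covered I:5429795-5430070, with the summit 25 bp upstream of the start in the exon of the non-coding RNA gene F27C1.17. Its IDR of 0.00164 put it in the conservative list, and 0.439 kept it out of the full list at the same signal of 90.1. It was listed in neither replicate, with an IDR of 0.110 in replicate 1 and 0.296 in replicate 2, at percentiles 98.6 and 98.0. The remaining genes of the complex, atp-4 and atp-5, had weaker candidates. The highest percentile of atp-4 was 71.4, in the conservative list, and atp-5 had candidates in replicate 1 alone, the stronger of them at percentile 44.0.

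Among the members of the electron transport chain, cyc-1 encodes cytochrome c1 of complex III, and cox-5A, cox-5B and cox-6B encode nuclear subunits of complex IV. The peak of cyc-1 (WBGene00000869, I:8022674-8024422, minus strand) covered I:8024596-8024871, with an intergenic summit 312 bp upstream. Its signal was 95.8 in the conservative list, 49.1 in replicate 1 and 50.4 in replicate 2, with an IDR of 0.00137, 0.00114 and 0.0384 in the same lists, so that it missed the limit in replicate 2. The peak of cox-5B (WBGene00000371, I:9788725-9790050, plus strand) covered I:9788556-9788831, with an intergenic summit 31 bp upstream. Its signal was 94.9 in the conservative list, 55.3 in replicate 1 and 37.6 in replicate 2. The IDR of cox-5B was 0.00508, 0.000611 and 0.165 in the same lists, and at percentile 99.3 it was the highest-ranked member of replicate 1.

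The peak of cox-5A (WBGene00012553, III:12905491-12906619, plus strand) covered III:12905053-12905328, with an intergenic summit 300 bp upstream. Signal was 80.5 in the conservative list, 38.0 in replicate 1 and 46.5 in replicate 2, and the IDR of 0.00299 in the conservative list stood beside 0.0145 in replicate 1 and 0.657 in replicate 2. Both cox-5A and atp-3 were thus in the conservative list and in neither replicate's own list. For cox-6B (WBGene00022170, III:2699663-2786859, plus strand) the peak covered III:2785908-2786183. It lay 156 bp upstream of the start at 2786202 and in an intron of the transcript that starts at 2699663. Its IDR of 0.0107 was just outside the limit in the conservative list, and 0.00564 and 0.00894 were within it in the full list and in replicate 1. In replicate 2 the IDR was 0.122, and the signals were 70.2 in the conservative list, 40.0 in replicate 1 and 35.4 in replicate 2. The last of the 8, ucr-2.1 (WBGene00012158, X:12018429-12021206, plus strand), encodes a core subunit of complex III. Its peak was found in replicate 1 only, at X:12017969-12018232 with an intergenic summit 328 bp upstream, a signal of 34.3 and an IDR of 0.00840. The other 3 lists held no candidate in its window.

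Sequence around the summits is shown for the member listed in all 4 lists, atp-2, for the 2 printed members that shared the word GGAGCGT within 50 bp of the summit, cox-5A and cox-6B, and for ucr-2.1, which was listed in replicate 1 alone. Each run is 151 bases, 75 on either side of the summit, on the plus strand of WBcel235 (ce11) from RefSeq, which is the strand of all 4 genes. The coordinates are III:5228072-5228222 for atp-2, III:12905116-12905266 for cox-5A, III:2785971-2786121 for cox-6B and X:12018026-12018176 for ucr-2.1. Capitals mark GGAGCGT or its reverse complement, and the summit is the central base.
atp-2: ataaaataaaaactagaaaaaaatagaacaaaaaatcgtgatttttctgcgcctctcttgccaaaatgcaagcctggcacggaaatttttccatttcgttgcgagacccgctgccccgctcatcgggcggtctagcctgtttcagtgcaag
cox-5A: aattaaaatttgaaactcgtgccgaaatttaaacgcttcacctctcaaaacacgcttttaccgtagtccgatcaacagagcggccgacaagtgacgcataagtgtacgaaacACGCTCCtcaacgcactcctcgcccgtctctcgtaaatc
cox-6B: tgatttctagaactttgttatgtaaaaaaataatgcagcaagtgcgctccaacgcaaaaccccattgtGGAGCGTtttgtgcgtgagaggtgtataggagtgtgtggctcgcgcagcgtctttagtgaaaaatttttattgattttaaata
ucr-2.1: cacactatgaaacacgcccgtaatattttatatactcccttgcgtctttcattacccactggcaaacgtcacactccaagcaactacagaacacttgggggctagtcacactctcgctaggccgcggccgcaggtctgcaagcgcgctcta

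GGAGCGT was searched after these sequences had been seen, and its counts are a description. Within 50 bp of the summit, on either strand, it was found at 3 of the 8 member peaks (cox-5A, cox-5B and cox-6B), at 12 of 273 listed promoter peaks of the conservative list (4.40%) and at 55 of 8565 unlisted promoter candidates (0.642%). For this and the other words, the sets differ and overlap. Among the 8 peaks, that of cox-6B is from the full list and that of ucr-2.1 from replicate 1. The peaks of cox-5A and cox-5B are among the 12, while cox-6B was an unlisted candidate of the conservative list. All 3 genes encode complex IV subunits. At cox-6B its first base was 7 bp before the summit on the strand of the gene, and at cox-5B 13 bp before the summit on the strand of the gene. At cox-5A it was on the opposite strand, and its reverse complement began 37 bp past the summit on the strand of the gene. The word CAAGTG, chosen in the same way, was found at 4 member peaks (atp-1, cox-5A, cox-6B and ucr-2.1), in 7.33% of listed promoter peaks and in 4.87% of unlisted candidates. CGCACA was found at 2 member peaks (cox-5B and cox-6B), against 19.4% of listed and 3.77% of unlisted ones, and GCCGCA at none of the 8, against 19% and 3.39%.

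A further 8 words were searched in the same windows of 101 bp, also on either strand. TATAAA, the core of the TATA box, was found at cyc-1 and ucr-2.1, and TTTTTT at atp-2. The telomeric repeat unit TTAGGC, the E-box CACGTG, the ETS core CCGGAA, the tRNA gene B box GTTCNANNC, GAGAGA and the GATA word TGATAA were found at 0 of 8 member peaks. Among the listed promoter peaks these 6 words were found in 5.86%, 3.30%, 2.20%, 10.3%, 14.3% and 2.20%, in the order given, and among unlisted candidates in 3.49%, 2.51%, 4.33%, 3.04%, 9.04% and 8.15%. TATAAA was held by 4.40% of listed and 8.51% of unlisted ones, and TTTTTT by 20.1% and 34.6%. None of the 12 words is contained in another. G and C made up between 45.5% (atp-3) and 55.4% (atp-1) of the bases in the same windows of the member peaks, with a median of 50.5%, which was also the median of listed promoter peaks; the unlisted candidates had a median of 40.6%.

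Summits of the members fell both near and well upstream of the annotated starts. In the conservative list the median was 150.5 bp upstream, between 312 bp upstream and 17 bp downstream, and 3 of 6 (50%) were more than 200 bp upstream. Over all 329 genes with a listed peak in the window the median was 239.0 bp upstream and 59.0% were that far. The members at under 50 bp from a start were atp-1, atp-3 and cox-5B, and those at 270 bp or more were atp-2, cox-5A and cyc-1. A peak of a member could also lie in the window of a neighbour, and no value here says which gene it belongs to. That was so for 3 of 6 (50%) in the conservative list, atp-1 with mcrs-1 (207 bp upstream of its start), atp-2 with C34E10.10 and C34E10.12 (263 and 266 bp), and atp-3 with F27C1.2 (224 bp), against 38.9% of the 329 genes. The peak of cox-6B lay also 98 bp upstream of Y71H2AM.20 and that of ucr-2.1 also 58 bp upstream of nmat-1. The peaks of cox-5A, cox-5B and cyc-1 were in the window of no other protein-coding gene. No tRNA, snoRNA or snRNA gene lay within 200 bp of any of the 8 summits. In the conservative list the count was 0 of 6 members, and 39 of the 329 genes (11.9%) had one that near their peak. A count of 0 at so few peaks cannot be told from that share.

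**Figure D3:**
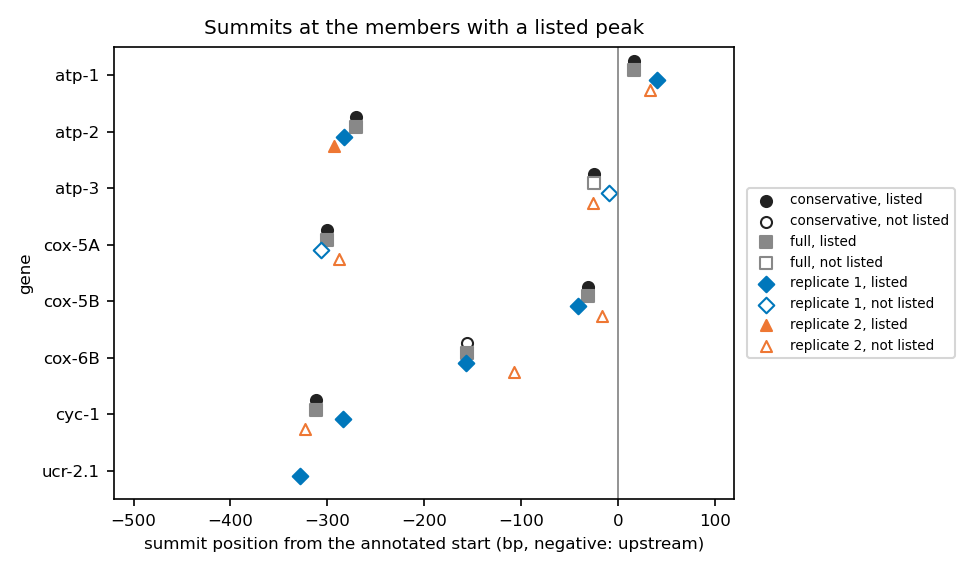
Position of the summit of the strongest candidate (bp from the annotated start, negative upstream) at the 8 genes with a listed peak, in each of the 4 lists. Filled symbols are listed peaks and open symbols candidates that were not listed. The widest spread was at cox-6B, 107 to 157 bp upstream. Summits lay near the start for atp-1, atp-3 and cox-5B and around 300 bp upstream for atp-2, cox-5A and cyc-1.

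The replicates differed in how many of these genes they listed. Replicate 1 listed 6 of 23 members with a candidate, 26.1% (10.2 to 48.4%), and replicate 2 listed 1 of 25, 4.0% (0.101 to 20.4%), with a mean of 15% ± 15.6 (SD, n = 2) and a difference of 22.1 percentage points. Over all genes with a candidate the shares were 3.56% in replicate 1 and 4.01% in replicate 2, with a mean of 3.78% ± 0.314 (SD, n = 2), a difference of -0.444. As shares of all genes, 14.3% of members against 1.11% of protein-coding genes were listed in replicate 1, and 2.38% of members (0.0603 to 12.6%) against 1.26% of protein-coding genes in replicate 2. Replicate 2 had the longer list over the whole genome, and the share of its members was near the background. With 1 sample on each side the difference has no test, and the intervals of the 2 shares overlap. The genes listed in replicate 1 were atp-1, atp-2, cox-5B, cox-6B, cyc-1 and ucr-2.1, and atp-2 was the one in common.

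Signal ranks of the members were compared between replicates as well. The strongest candidate was taken in each replicate separately, so the 2 candidates of a gene can be different peaks. Over the 18 members with a candidate in both, replicate 1 had a median percentile of 87.2 and replicate 2 one of 80.8 (84.0 ± 4.56, SD, n = 2), and 12 stood higher in replicate 1. The median over all genes with a candidate was also higher in replicate 1, at 61.1 against 57.7 in replicate 2. The comparison was not made for all genes with a candidate in both. Against all candidates, 8 of 23 members (34.8%) in replicate 1 had one among the strongest 5%, against 11.4% of genes, and 6 of 25 (24.0%) in replicate 2, against 9.0% of genes. Of these strong candidates, 6 of 8 members were listed in replicate 1 (75%), against 31.2% of 709 genes, and 1 of 6 in replicate 2 (16.7%), against 44.3% of 564 genes. The limit of 5% was chosen after seeing the data. The members that were listed in replicate 1 and had a candidate in replicate 2 stood there at percentile 92.9 (cox-6B) to 98.6 (atp-2). Single members differed in rank in both directions. The signal percentile of nuo-1, a catalytic subunit, was 94.9 in replicate 1 and 37.2 in replicate 2, and those of nuo-2 were 82.1 and 12.8. For cox-14, a complex IV assembly factor, it was 33.2 in replicate 1 and 83.3 in replicate 2, for the complex IV subunit cox-7C 14.9 and 47.8, and for mev-1, the cytochrome b subunit of complex II, 57.3 and 74.9. None of these 5 genes had a listed peak in either replicate. The summits compared for cox-7C were at -465 bp in replicate 1 and -336 bp in replicate 2. For mev-1 they were at -174 and -71 bp, in the same order. Those of nuo-1 (-301 and -303 bp), nuo-2 (-153 and -147 bp) and cox-14 (-258 and -285 bp) lay closer together.

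**Figure D4:**
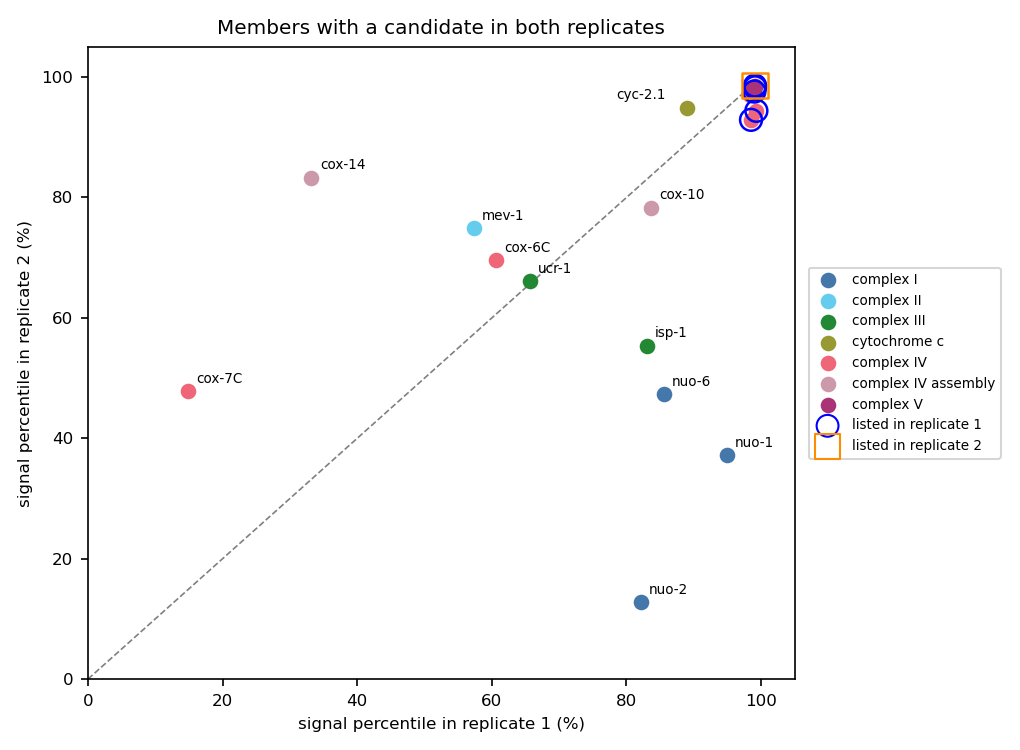
Signal percentile (%) of the strongest candidate in replicate 1 (horizontal) and replicate 2 (vertical) at the 18 members with a candidate in both, coloured by complex, with the line of equal percentiles. The strongest candidate was taken in each replicate separately and need not be the same peak. The genes listed in replicate 1 (blue rings) crowd in the upper right corner, nuo-1, nuo-2 and nuo-6 lie well below the line, and cox-14 and cox-7C well above it.

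Each replicate's ranked file also gives, for every candidate, the signal in the 2 peak sets that its IDR compares, and the file derives from the alignments of that replicate alone. At atp-2 the higher of the pair was 1.26 times the lower in replicate 1 (27.4 and 21.7) and 1.26 times in replicate 2 (31.7 and 25.1). At atp-1 the ratio was 1.65 in replicate 1 (30.1 and 18.3) and 3.74 in replicate 2 (45.4 and 12.2). At cox-5A it was 1.04 in replicate 1 (18.5 and 17.8) and 2.86 in replicate 2 (37.1 and 13.0). For atp-3 the ratio was 2.55 in replicate 1 and 2.59 in replicate 2, and for cyc-1 it was 1.28 in replicate 1 and 1.84 in replicate 2. Among the 8 genes with a listed peak, the widest pairs were those of atp-1, cox-5A and atp-3 in replicate 2 and of atp-3 in replicate 1. Not every unlisted candidate was such a pair: in replicate 2, cox-5B (20.7 and 16.2) and cox-6B (19.7 and 17.5) had ratios of 1.28 and 1.13 and stayed unlisted at lower signals than that of atp-2. For all genes with a candidate among the strongest 5%, the median ratio in replicate 1 was 1.23 at the 221 listed and 1.56 at the 488 unlisted, and in replicate 2 it was 1.2 at the 250 listed and 1.51 at the 314 unlisted. The IDR is computed from these pairs, so the ratios describe the calls and are no separate evidence on them.

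**Figure D5:**
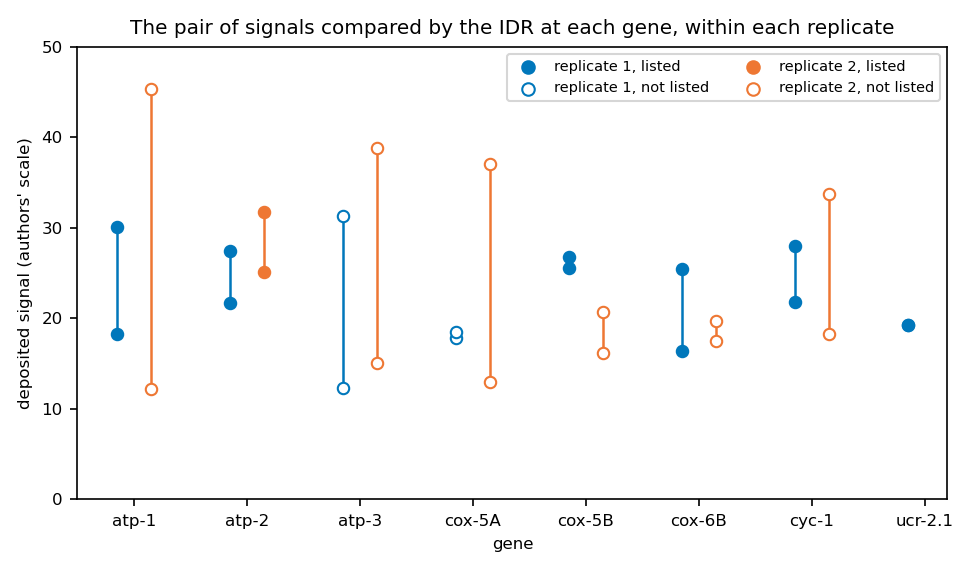
Deposited signal (authors' scale) in the 2 peak sets compared by the IDR, joined by a line, at each gene in replicate 1 (blue) and replicate 2 (orange), filled where the peak was listed and open where it was not. The pairs of atp-1, atp-3 and cox-5A in replicate 2 are the widest, and that of atp-2 is narrow in both replicates.

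The members without a listed peak had weaker candidates or none. In the conservative list 19 never-listed members had a candidate, with signals of 21.6 to 55.5 (median 34.2), percentiles of 35.0 to 95.8 and an IDR of 0.196 to 0.876. The nearest to the limit were the complex IV assembly factor cox-10 (IDR 0.196, percentile 77.4), which acts in the synthesis of heme A, isp-1 (0.402, 83.7), the Rieske iron-sulfur protein of complex III, nuo-6 of complex I (0.488, 73.9), the assembly factor cox-11 (0.610, 74.6) and sdha-2, a flavoprotein of complex II (0.633, 78.5). The highest signal among them was that of cox-4, a subunit of complex IV named here after its values were seen, at 55.5 and percentile 95.8. Its IDR was 0.703 in the conservative list, 0.0683 in the full list and 0.0561 in replicate 2, and replicate 1 held no candidate in its window. The cytochrome c gene cyc-2.1 had an IDR of 0.768 in the conservative list and 0.0736 in the full list at percentiles 91.5 and 91.3. The 10 members with no candidate in any list were cox-15, cox-18, cox-19, gas-1, lpd-5, nuo-3, nuo-5, sdhb-1, sdhd-1 and ucr-2.3, of which 6 belong to complexes I and II. In the conservative list alone 7311 of 19985 protein-coding genes had a candidate, so lacking one was the common state. The share without one in any list was not computed for all genes. Over all 26 members with a candidate in the conservative list the median percentile was 80.6 (35.0 to 99.3), against 63.6 over 7311 genes. It was 79.4 against 63.8 in the full list, 85.5 against 61.1 in replicate 1 and 69.6 against 57.7 in replicate 2.

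The listed members ranked 300 to 624 by signal in the conservative list, with a median of 460.5, against a median of 424.0 over the 329 genes with a listed peak in the window. They were thus in the middle of the list and not among its strongest peaks.

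Genes that feed or complete the pathway were read beside the members, as 74 further genes under other symbols. In the conservative list 7 of 47 with a candidate were listed (14.9%, 6.20 to 28.3%), against 4.50% of all genes with a candidate. Replicate 1 listed 4 of 33 (12.1%, 3.40 to 28.2%), against 3.56% of all such genes, and replicate 2 listed 4 of 37 (10.8%, 3.03 to 25.4%), against 4.01%. Enzymes of the citric acid cycle and pyruvate dehydrogenase, which make the NADH and succinate that the chain oxidises, had 4 of 17 in the conservative list (23.5%, 6.81 to 49.9%, against the same 4.50%), with 4 of 12 in replicate 1 (33.3%, 9.92 to 65.1%) and 3 of 13 in replicate 2 (23.1%, 5.04 to 53.8%). The strongest was idhg-1, a subunit of the NAD-dependent isocitrate dehydrogenase, with a signal of 246.7 and a summit 59 bp upstream, above every member. Its partner idha-1 had 159.4 (261 bp upstream) and pdhb-1, the beta subunit of pyruvate dehydrogenase, 153.1 (424 bp upstream, in the window of dyf-3 too), and all 3 were in all 4 lists. For dld-1, the dihydrolipoamide dehydrogenase shared by several such enzymes, the signal was 80.0, with a listed peak in replicate 1 and none in replicate 2. The ADP/ATP carrier ant-1.1, which exchanges the ATP made for ADP, was listed (75.8, 55 bp upstream) in the conservative and full lists and in neither replicate.

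Other respiratory subunits and assembly genes had 2 of 25 listed in the conservative list (8.0%, 0.984 to 26.0%). The share of all genes with a candidate, 4.50%, lies within that wide interval, so the count is too small to be told from the background. Both were complex I subunits that the symbol rule does not reach. These were ndub-6, at 98.4 and 228 bp upstream, shared with acl-3 and listed in replicate 2 but not in replicate 1, and ndua-2, at 72.9 and 407 bp upstream, shared with dnj-29 and listed in neither replicate. The count of 0 for complexes I and II therefore holds for the 13 genes of the rule and not for complex I as a whole. Of the 4 ubiquinone synthesis genes with a candidate none was listed.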

How the data were processed

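ChIP-seq peak lists of 2 biological replicates of 1 group were used. Per the deposited readme, each replicate's lists derive from its own alignments and the series' lists from both, on ce11 (WBcel235). The aligner and peak caller were not given in the sources used here, while read depth is unknown, so precision could not be set against depth. The deposited signal is the authors' value per peak, on an unstated scale. The deposited scores are the IDR, scaled to at most 1000, and its minus log10, up to 5. In the 2 ranked lists of the series, 16 columns of paired peak sets were not used.

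Summits were placed on protein-coding starts of Ensembl release 115, and RefSeq gave the sequences. The members and gene lists were chosen with earlier results of these data known. After the files were read, 1 gene matched by a symbol prefix and outside the pathway was removed from the list of further pathway genes. Named genes were all members listed in any list, the 5 unlisted members with the lowest IDR in the conservative list, and the further pathway genes listed there. Shares have exact (Clopper-Pearson) 95% intervals. With a single group no p-value was computed. Alternatives were other windows, starts, lists, IDR limits, ranks and denominators, and leaving out each replicate. On simulated data 245 of 245 planted peaks were recovered at their distance. Python 3.11.15, numpy 2.4.6, pandas 2.3.3, scipy 1.17.1 and matplotlib 3.10.9 were used.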

Additional observations from a re-analysis of the deposited data

How the results depend on the processing

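The 6 members listed in the conservative list became 3 with a window of 200 bp upstream (atp-1, atp-3 and cox-5B), 2 at an IDR of at most 0.001 and 2 above the median signal of the list (atp-1 and atp-2 both times), and 3 without peaks shared with another gene (cox-5A, cox-5B and cyc-1). Leaving out a replicate meant reading the other replicate's own list. Without replicate 1 the count was 1 (atp-2). Without replicate 2 it was 6, with cox-6B and ucr-2.1 gained and atp-3 and cox-5A lost. Complex V, at 3, had 0 without shared peaks and 1 to 2 with a replicate left out. Complex IV, at 2, had 1 with the window of 200 bp, 0 at the stricter IDR, 0 above the median signal and 0 to 2 with a replicate left out. Complex III, at 1, had 0 under each of those 3 settings and 0 to 2 with a replicate left out. Complexes I and II had 0 throughout. The median distance of -150.5 bp became -25.0 with the window of 200 bp and -270.0 with 1000 bp. It was -213.0 in the full list and -300.0 without shared peaks. Without replicate 2 it was -220.0, and without replicate 1 it was -293.0, the value of atp-2 alone. The difference between replicates of 22.1 percentage points became 58.3 among the strongest 5% of candidates, a limit chosen after seeing the data, and lay between 11.9 and 23.1 under the other settings. Of 86 values under alternatives, 63 stayed within their limits and 23 moved, and the causes were not tested. The limit was a ratio of 1.5 for counts and the SD between the 2 replicates for other results. For the difference between replicates that SD was 15.6 beside a value of 22.1, so staying within it is a loose criterion. Counts and percentiles cannot change sign, and 0 of the other values did. No paired analysis was possible because there is a single group.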

Other observations

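The word GGAGCGT lay within 50 bp of 12 listed promoter peaks of the conservative list. Besides cox-5A and cox-5B, the genes with such a peak in the window were the ribosomal protein genes rpl-15 (signal 225.5), rpl-35 (132.4) and rps-1 (116.0), and K11H12.8, tasp-1, C16C10.4, rnf-121, scc-2, gei-6, krr-1, K10D2.5, car-1 and F36A2.7. The pairs rpl-15 and K11H12.8, C16C10.4 and rnf-121, and gei-6 and krr-1 each shared a single peak (signals 225.5, 163.5 and 135.8).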
